A study of Mus musculus with 6 samples.

Results

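The 10 genes described here encode the synthases and receptors of prostanoids, the lipid mediators made from arachidonic acid. They were taken by NCBI gene identifier as a list of names, and all 10 were found among the 18191 genes measured. No rule on their values was applied, but earlier results of these data were known when the list was chosen. RNA of the whole aorta of male mice was sequenced in 3 libraries of wild type (WT) mice and 3 libraries of Npr1+/- mice, numbered 1 to 3 in each group. Npr1+/- mice are heterozygous for a knockout of *Npr1*. This gene encodes the receptor that binds atrial and B-type natriuretic peptides. No treatment is given for either group, and the strain and age are not given in the sources used here. The labels do not say whether each library came from 1 animal, so the tests measure the spread between these libraries. The comparison asks how the aorta of mice with 1 disrupted copy of *Npr1* differs from that of WT mice.

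Prostanoid synthesis starts when phospholipases free arachidonic acid from membranes. The cyclooxygenases, encoded by *Ptgs1* and *Ptgs2*, turn it into prostaglandin H2, from which terminal synthases make the single prostanoids. Prostacyclin synthase (*Ptgis*) makes prostacyclin, which relaxes smooth muscle and restrains platelets, and thromboxane synthase (*Tbxas1*) makes thromboxane A2, which does the opposite. Each prostanoid acts on receptors of the rhodopsin type, with *Ptgir* for prostacyclin, *Tbxa2r* for thromboxane and *Ptger1* to *Ptger4* for prostaglandin E2.

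The estimated counts of a library summed to between 13510970 and 16664343, so that 3 counts, the smallest signal considered, stood for between 0.18 and 0.222 CPM (counts scaled to the library total). *Npr1* (NCBI gene 18160, chromosome 3 of GRCm38 from 90450591 to 90465866) had 453, 611 and 633 normalized CPM in the WT libraries 1 to 3, against 295, 452 and 527 in the Npr1+/- libraries. It was lower in the Npr1+/- library of each number, but the groups overlapped (exact two-sided permutation test of log2 values, p = 0.2, where 0.1 is the smallest p that 3 libraries against 3 allow). The library Npr1+/- 1 stood apart in its cell markers. *Th* and *Dbh*, the enzymes that define noradrenergic neurons, were at 38.97 and 56.15 FPKM (fragments scaled by transcript length and library size) in it. In the other 5 libraries *Th* was at most 0.07 FPKM and *Dbh* at most 0.25 FPKM. The summed FPKM of 10 smooth muscle markers was 5080 in Npr1+/- 1 and 8700 in WT 1, against 13700 to 15300 in the other 4 libraries. That of 12 fat cell markers was 11000, 2290 and 2510 in WT libraries 1 to 3, against 17100, 5010 and 4630 in Npr1+/- libraries 1 to 3. Values are therefore also given without Npr1+/- 1, which keeps WT 1 with its high fat markers, and in places without both libraries numbered 1. In RNA of a whole vessel, fewer cells of a type and less RNA per cell cannot be told apart.

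Of the 10 genes, 9 passed the filter on low counts and entered the test, and *Ptger2* did not. A gene was called where edgeR's quasi-likelihood test gave an adjusted p below 0.05 with a log2 fold change beyond 0.5 in size. None of the 9 genes met this (0 calls), nor did any of the 13938 genes tested (0%). At an unadjusted p under 0.05, 0 of the 9 genes passed, against 2.96% of all genes tested. DESeq2 called 16 of all genes and 0 of the 9. On simulated counts with no gene changed it made 22 false calls. Those counts were drawn independently for each gene, so this number cannot be carried over to the 16. With DESeq2, 1 of the 9, *Ptger3*, had an unadjusted p under 0.05, against 3.23% of the genes that it tested. When the replicate number entered the edgeR fit as a block, 0 genes were called, and 3 of the 9 (33.3%) had an unadjusted p under 0.05, against 12.4% of all genes tested. These were *Ptgs1*, *Tbxa2r* and *Ptger3*. The 9 genes had a median log2 fold change of 0.010, beside 0.008 over all genes tested. For each of the 10 genes the ranges of the groups overlapped, while 3.9% of all genes tested lay above and 3.58% below the WT range in every Npr1+/- library.

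By level per transcript length in WT aortas, the 10 genes fell in the order *Ptgis*, *Tbxa2r*, *Ptger3*, *Ptgs1*, *Ptgs2*, *Ptger1*, *Tbxas1*, *Ptgir*, *Ptger4* and *Ptger2*. The mean FPKM ran from 410 ± 62.8 (SD, n = 3) for *Ptgis* to 0.133 ± 0.0503 (SD, n = 3) for *Ptger2*. Of the 9 pairs of neighbours in this order, 4 overlapped in their ranges over the WT libraries, namely *Ptger3* with *Ptgs1*, *Ptgs2* with *Ptger1*, *Tbxas1* with *Ptgir*, and *Ptgir* with *Ptger4*. In Npr1+/- aortas *Ptger3* stood before *Tbxa2r* by its mean, though their ranges overlapped, and the rest of the order was the same.

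**Figure D1:**
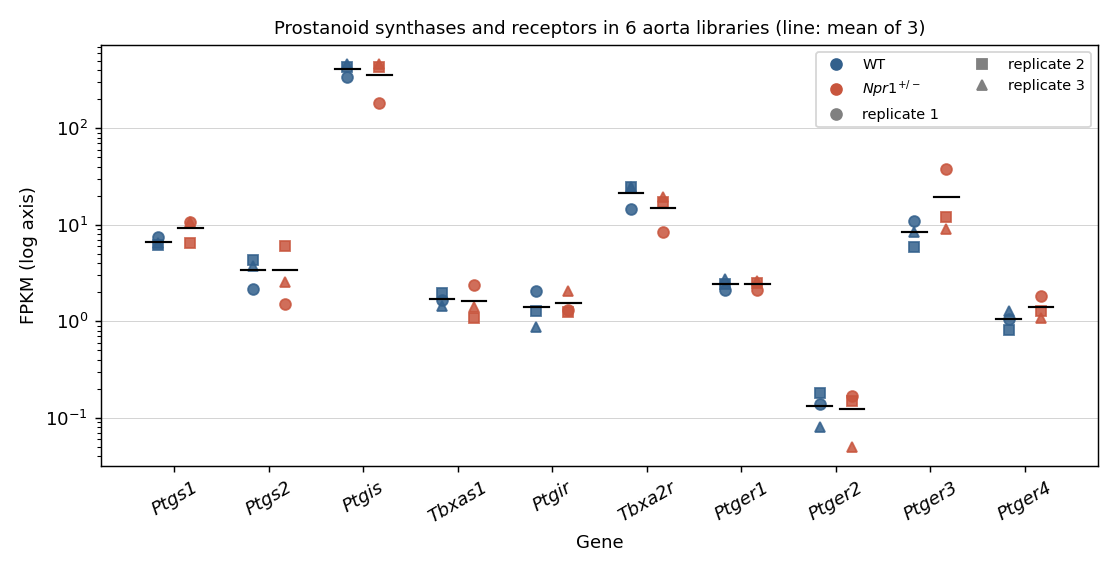
FPKM (log axis) of the 10 prostanoid genes in each of the 6 aorta libraries, with WT in blue, Npr1+/- in red, the replicate number as the shape and the mean of 3 libraries as a line. *Ptgis* lies far above the other genes in every library, and Npr1+/- 1 (red circle) is the lowest library for *Ptgis* and *Tbxa2r* and the highest for *Ptger3*.

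*Ptgs1* and *Ptgs2* encode the cyclooxygenases, of which the former is known as the constitutive form and the latter as the form induced by cytokines, growth factors and flow. *Ptgs1* (NCBI gene 19224) spans bases 36230426 to 36252272 of chromosome 2 (GRCm38), and *Ptgs2* (NCBI gene 19225) bases 150100031 to 150108227 of chromosome 1, both on the plus strand. The FPKM of *Ptgs1* was 7.53, 6.14 and 6.43 in WT libraries 1 to 3, against 10.69, 6.53 and 10.61 in Npr1+/- libraries 1 to 3. Npr1+/- 1 and 3 were above all WT libraries, and Npr1+/- 2 lay within the WT range. In CPM normalized between libraries, each Npr1+/- library was above the WT library of the same number, at 145%, 105% and 148% of it.

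The log2 fold change of *Ptgs1* between Npr1+/- and WT aortas was 0.43 (95% interval -0.14 to 1.00, edgeR unadjusted p = 0.119, adjusted p = 0.999). With the replicate block it was 0.40 (95% interval 0.05 to 0.74, edgeR unadjusted p = 0.0292, adjusted p = 0.337), and without Npr1+/- 1 it was 0.23. Without both libraries numbered 1, a choice made after seeing the data, it was 0.36. The summed FPKM of 10 endothelial markers, cells known to express *Ptgs1*, was 186 to 288 in WT and 331 to 468 in Npr1+/- libraries. This sum did not overlap, but 5 of the 10 markers did, and the mean log2 CPM of the list was 6.09 in WT 1 and 6.06 in Npr1+/- 3. The part of these cells in the level of *Ptgs1* was not tested. The count of *Ptgs1* was not a whole number in 4 of the 6 libraries, as happens where RSEM divides a read between genes or transcripts.

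*Ptgs2* varied more between libraries, by 3.94 times from the lowest to the highest FPKM against 1.74 times for *Ptgs1*. The WT libraries 1 to 3 held 2.18, 4.33 and 3.70 FPKM, and the Npr1+/- libraries 1 to 3 held 1.52, 5.99 and 2.57 FPKM. Npr1+/- 2 was the highest and Npr1+/- 1 the lowest of the 6, so that the WT range lay inside the Npr1+/- range. Its log2 fold change was -0.011 with a 95% interval from -1.24 to 1.21 (edgeR adjusted p = 1), an interval that includes a change by more than 2-fold in either direction. Within replicate numbers, *Ptgs2* was at 72.7%, 143% and 65.8% of the WT library in normalized CPM.

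Per transcript length, *Ptgs1* exceeded *Ptgs2* in all 6 libraries. The ratio of their FPKM was 3.45, 1.42 and 1.74 in WT libraries 1 to 3, against 7.03, 1.09 and 4.13 in Npr1+/- libraries 1 to 3. On the log2 scale the ratio was 1.03 ± 0.67 (SD, n = 3) in the WT group and 1.66 ± 1.39 (SD, n = 3) in Npr1+/- aortas, and the difference of 0.63 was smaller than the spread between the Npr1+/- libraries. It was 0.055 without Npr1+/- 1, 1.40 without Npr1+/- 2 and 1.01 without WT 1.

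The promoters of both cyclooxygenase genes are shown because Npr1+/- 1 had the highest *Ptgs1* and the lowest *Ptgs2* of the 6 libraries. They are the RefSeq sequences of GRCm38.p6 from 250 bases before to 50 bases after the annotated start, on the plus strand at chr2:36230176-36230475 for *Ptgs1* and chr1:150099781-150100080 for *Ptgs2*. Capitals mark matches, searched on either strand, to 8 motifs. They were the TATA box with the letters TATAAA, the E-box with the letters CACGTG, the cAMP response element with the letters TGACGTCA and also its short form with the letters TGACG, which the full element contains. Searched in the same way were the GC box with the letters GGGCGG, the CCAAT box with the letters of its name, and the motifs known as NF-kB site and CArG box.

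Ptgs1: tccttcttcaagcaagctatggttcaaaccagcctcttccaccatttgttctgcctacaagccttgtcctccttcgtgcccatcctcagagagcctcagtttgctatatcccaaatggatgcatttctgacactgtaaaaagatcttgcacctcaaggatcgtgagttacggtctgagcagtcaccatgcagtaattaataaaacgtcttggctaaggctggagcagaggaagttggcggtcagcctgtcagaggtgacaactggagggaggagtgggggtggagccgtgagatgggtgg

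Ptgs2: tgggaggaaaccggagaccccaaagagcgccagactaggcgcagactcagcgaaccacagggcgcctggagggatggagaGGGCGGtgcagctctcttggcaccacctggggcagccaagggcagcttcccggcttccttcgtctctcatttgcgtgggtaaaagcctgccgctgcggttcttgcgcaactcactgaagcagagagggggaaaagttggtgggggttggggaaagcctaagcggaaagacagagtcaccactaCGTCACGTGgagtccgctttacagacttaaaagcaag

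No match fell in the *Ptgs1* window. In that of *Ptgs2*, a GC box lay from -170 to -165, counted from the annotated start as 0, and a short form of the cAMP response element (13 to 17) overlapped an E-box (16 to 21) by 2 bases. Among 32851 promoters of the same length, 35.7% held a GC box, 7.15% an E-box, 20.8% the short and 1.79% the full cAMP response element, 13.6% a TATA box, 37.4% a CCAAT box, 4.51% an NF-kB site and 1.63% a CArG box. The *Ptgs2* window held 16 CpG dinucleotides and the *Ptgs1* window 6. A promoter was found in the RefSeq table for 8 of the 10 genes.

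*Ptgis* (NCBI gene 19223, chromosome 2 from 167191805 to 167240604, minus strand) was by far the most abundant of the 10 genes, at rank 188 of the 18191 genes by mean FPKM. It measured 338.98, 434.28 and 457.35 FPKM in the WT libraries 1 to 3 against 181.79, 429.34 and 465.06 FPKM in the Npr1+/- libraries 1 to 3. Npr1+/- 2 and 3 lay close to WT 2 and 3, while WT 1 and above all Npr1+/- 1 were lower. The log2 fold change was -0.20 (95% interval -1.07 to 0.68, edgeR unadjusted p = 0.612, adjusted p = 0.999), and it was 0.10 without Npr1+/- 1. Without both libraries numbered 1, a choice made after seeing the data, it was -0.013.

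Smooth muscle and endothelial cells of arteries are known to express *Ptgis*. The summed smooth muscle markers, given above, were lowest in Npr1+/- 1 and next lowest in WT 1, and so was *Ptgis*. Per 1000 FPKM of the summed smooth muscle markers, a scale chosen after the values were seen, *Ptgis* was 39.0, 29.8 and 29.8 in WT libraries 1 to 3, against 35.8, 31.3 and 32.1 in Npr1+/- libraries 1 to 3. The highest library was 1.31 times the lowest on this scale, against 2.56 times in FPKM. The means were 32.9 ± 5.28 (SD, n = 3) in the WT group and 33.1 ± 2.4 (SD, n = 3) in Npr1+/- aortas, a difference within the spread between libraries. The summed FPKM of 10 endothelial markers did not follow *Ptgis*, at 281, 186 and 288 in WT libraries 1 to 3, against 468, 342 and 331 in Npr1+/- libraries 1 to 3. The part of either cell type in the level of *Ptgis* was not tested.

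*Tbxas1*, whose product makes thromboxane and is known from platelets and macrophages, was near the low end of the 10 genes. It lies on chromosome 6 from 38875404 to 39084585, on the plus strand (NCBI gene 21391). The WT libraries 1 to 3 held 1.68, 1.95 and 1.45 FPKM, and the Npr1+/- libraries 1 to 3 held 2.37, 1.09 and 1.40 FPKM, from between 32 and 64 counts in a library. Npr1+/- 1 was the highest library, and the other libraries of the genotype were below every WT library. Between the groups the log2 fold change was -0.063 (95% interval -0.94 to 0.82, edgeR adjusted p = 0.999) and -0.51 without Npr1+/- 1.

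All 10 platelet markers were detected, and their summed FPKM was 50.3 to 148 in WT and 34.1 to 109 in Npr1+/- libraries. That of 10 macrophage markers was 189 to 485 in WT and 238 to 335 in Npr1+/- libraries. Both sums were highest in WT 1. Their part in the level of *Tbxas1* was not tested.

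Prostacyclin synthase exceeded thromboxane synthase in every library. The ratio of the FPKM of *Ptgis* to that of *Tbxas1* was 202, 223 and 315 in WT libraries 1 to 3, against 76.7, 394 and 332 in Npr1+/- libraries 1 to 3. Npr1+/- 1 had the lowest and Npr1+/- 2 the highest ratio, and the log2 ratio differed between the groups by -0.17, less than its spread of 1.30 (SD, n = 3) among the Npr1+/- libraries. The direction of this difference turned on single libraries, at 0.58 without Npr1+/- 1 and 0.025 without WT 3, against -0.60 without Npr1+/- 2.

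*Tbxa2r*, the thromboxane receptor that contracts smooth muscle and activates platelets, had the highest mean FPKM of the 6 receptors in WT aortas. It lies on chromosome 10 from 81328731 to 81335172, on the plus strand (NCBI gene 21390). It measured 14.63, 24.55 and 24.72 FPKM in the WT libraries 1 to 3 against 8.37, 17.29 and 19.39 FPKM in the Npr1+/- libraries 1 to 3. All 3 Npr1+/- libraries were below WT 2 and 3, but Npr1+/- 2 and 3 were above WT 1. In normalized CPM each Npr1+/- library was below the WT library of its number, at 59.5%, 72.1% and 75.0% of it.

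The log2 fold change of *Tbxa2r* was -0.51 (95% interval -1.33 to 0.32, edgeR unadjusted p = 0.188, adjusted p = 0.999). With the replicate block it was -0.54 (95% interval -0.82 to -0.25, edgeR unadjusted p = 0.00269, adjusted p = 0.153), which was the smallest p of the 9 genes and did not pass after adjustment. Without the block, it was -0.24 without Npr1+/- 1 and -0.44 without both libraries numbered 1 (edgeR unadjusted p = 0.0066, adjusted p = 0.283), the latter chosen after seeing the data. Per 1000 FPKM of the smooth muscle markers, *Tbxa2r* was 1.68, 1.69 and 1.61 in WT libraries 1 to 3, against 1.65, 1.26 and 1.34 in Npr1+/- libraries 1 to 3. On this scale Npr1+/- 1 lay within the WT range and the other Npr1+/- libraries lay below it. The part of smooth muscle cells in the level of *Tbxa2r* was not tested.

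*Ptgir*, the prostacyclin receptor that raises cAMP in smooth muscle and platelets, was lower than *Tbxa2r* per length in every library. It lies on chromosome 7 from 16906490 to 16910905, on the plus strand (NCBI gene 19222). The WT libraries 1 to 3 held 2.08, 1.29 and 0.88 FPKM, and the Npr1+/- libraries 1 to 3 held 1.32, 1.25 and 2.04 FPKM. The 3 Npr1+/- libraries lay within the WT range, and the log2 fold change was 0.14 (95% interval -0.73 to 1.01, edgeR adjusted p = 0.999). WT 1 and Npr1+/- 3 were the highest libraries.

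Among the receptors, that for thromboxane was the more abundant. The ratio of the FPKM of *Ptgir* to that of *Tbxa2r* was 0.142, 0.0525 and 0.0356 in WT libraries 1 to 3, against 0.158, 0.0723 and 0.105 in Npr1+/- libraries 1 to 3. In each replicate number the ratio was higher in the Npr1+/- library. The log2 ratio was -3.96 ± 1.03 (SD, n = 3) in the WT group and -3.23 ± 0.56 (SD, n = 3) in Npr1+/- aortas, so that the difference of 0.72 was within the spread between WT libraries. It was 1.30 without WT 1, 0.30 without WT 3 and 0.44 without Npr1+/- 1.

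**Figure D2:**
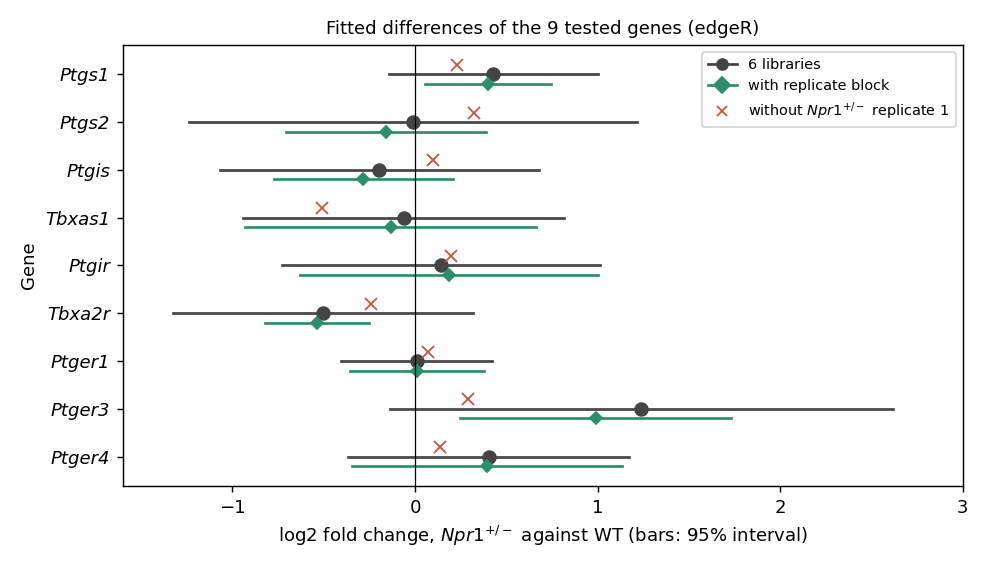
Fitted log2 fold change of Npr1+/- against WT aortas (x axis) for the 9 tested genes (y axis), with the 6 libraries (black), with the replicate block (green) and without Npr1+/- replicate 1 (red cross), and with 95% intervals as bars. All black intervals include 0, and the green intervals of *Ptgs1*, *Tbxa2r* and *Ptger3* do not, where the unadjusted p was 0.0292, 0.00269 and 0.0156.

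The 4 receptors of prostaglandin E2 signal in different ways, *Ptger1* through calcium, *Ptger2* and *Ptger4* by raising cAMP, and *Ptger3* mainly by lowering it. *Ptger3* (NCBI gene 19218, chromosome 3 from 157566892 to 157645888, plus strand) had the highest level of the 4 in every library. It measured 10.85, 5.92 and 8.45 FPKM in the WT libraries 1 to 3 against 37.75, 12.05 and 9.12 FPKM in the Npr1+/- libraries 1 to 3. Npr1+/- 1 was far above the other 5 libraries, Npr1+/- 2 was just above WT 1, and Npr1+/- 3 lay within the WT range.

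The log2 fold change of *Ptger3* was 1.24 (95% interval -0.14 to 2.62, edgeR unadjusted p = 0.0707, adjusted p = 0.999), the largest of the 9 genes. With the replicate block it was 0.99 (edgeR unadjusted p = 0.0156, adjusted p = 0.277). Without Npr1+/- 1 it was 0.29, and without both libraries numbered 1, a choice made after seeing the data, it was 0.51. Npr1+/- libraries were at 365%, 211% and 97.5% of the WT library of the same number in normalized CPM.

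The library with the high *Ptger3* was the one with *Th* and *Dbh*. The summed FPKM of 12 neuronal markers was 320 in Npr1+/- 1 and between 70.5 and 83.8 in the other 5, where *Uchl1* made up most of it with 61.94 to 78.55 FPKM. The summed FPKM of 10 Schwann cell markers was 228 in Npr1+/- 1 and 112 to 136 in the others, and that of 8 mesothelial markers 4.71 against 1.18 to 1.56. Npr1+/- 2, the next highest in *Ptger3*, had the lowest neuronal sum (70.5) but the second highest mean log2 CPM of the 12 markers. This mean was -0.27, -0.24 and -0.36 in WT libraries 1 to 3, against 5.17, 0.17 and -0.28 in Npr1+/- libraries 1 to 3. Fat cell markers, given above, were also highest in Npr1+/- 1, and they were higher in Npr1+/- 2 and 3 than in WT 2 and 3. The part of these cells in the level of *Ptger3* was not tested.

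The promoter of *Ptger3* is shown as that of the gene with the widest range over the libraries, at chr3:157566626-157566925 on the plus strand, with capitals as above.

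Ptger3: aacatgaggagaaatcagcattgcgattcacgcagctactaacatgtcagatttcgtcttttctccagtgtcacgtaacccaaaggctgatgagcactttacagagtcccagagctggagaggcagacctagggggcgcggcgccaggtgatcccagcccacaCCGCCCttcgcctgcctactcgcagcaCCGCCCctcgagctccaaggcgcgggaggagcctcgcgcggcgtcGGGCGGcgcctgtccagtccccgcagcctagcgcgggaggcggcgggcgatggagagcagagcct

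The window held 3 GC boxes, at -87 to -82, -60 to -55 and -15 to -10, and 27 CpG dinucleotides.

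*Ptger4* (NCBI gene 19219, chromosome 15 from 5206661 to 5244187, minus strand) had an FPKM of 1.06, 0.81 and 1.28 in WT libraries 1 to 3, against 1.81, 1.28 and 1.09 in Npr1+/- libraries 1 to 3. Npr1+/- 1 was again the highest library, and Npr1+/- 2 equalled WT 3. Its log2 fold change was 0.40 (95% interval -0.37 to 1.17, edgeR unadjusted p = 0.253, adjusted p = 0.999) and 0.14 without Npr1+/- 1.

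*Ptger1* (NCBI gene 19216, chromosome 8 from 83666678 to 83672753, plus strand) varied least of the 10 genes. The WT libraries 1 to 3 held 2.13, 2.42 and 2.77 FPKM, and the Npr1+/- libraries 1 to 3 held 2.10, 2.49 and 2.63 FPKM, and the highest library was 1.32 times the lowest. Its log2 fold change was 0.010 (95% interval -0.41 to 0.42, edgeR adjusted p = 1). Its count was not a whole number in any of the 6 libraries, so that this value is uncertain where reads were divided between genes or transcripts.

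*Ptger2* (NCBI gene 19217, chromosome 14 from 44988195 to 45003820, plus strand) was hardly measurable at this depth. It had 7, 11 and 5 counts in the WT libraries 1 to 3, against 7, 9 and 3 counts in the Npr1+/- libraries, or 0.05 to 0.18 FPKM. The last of these is at the floor of 3 counts, and a difference between the groups was not detectable.

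**Figure D3:**
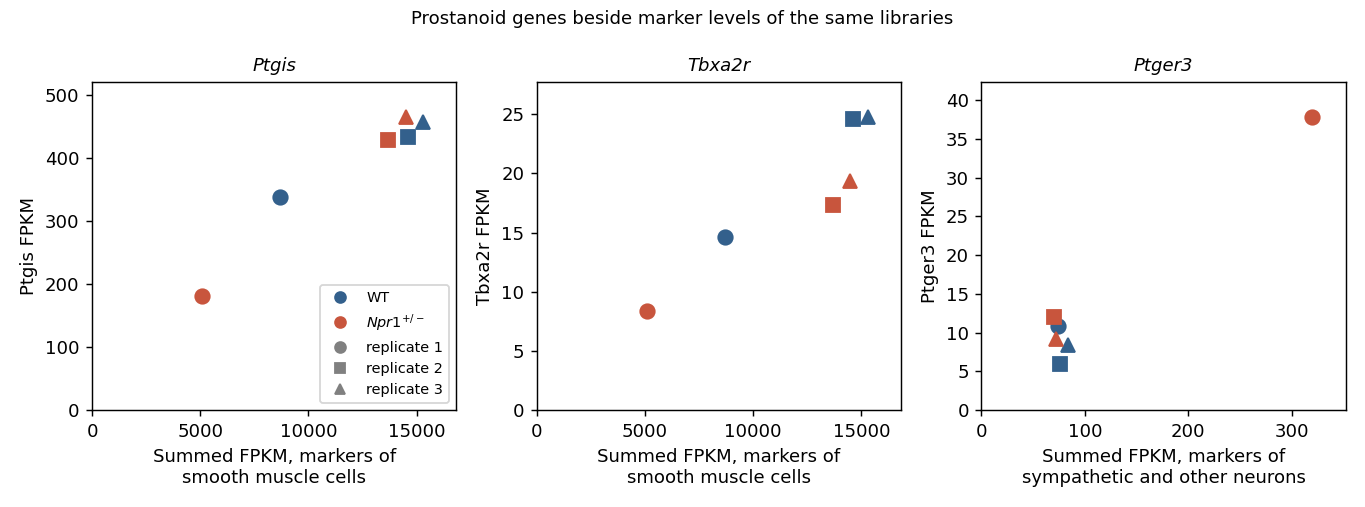
FPKM of *Ptgis*, *Tbxa2r* and *Ptger3* (y axes) against the summed FPKM of smooth muscle or neuronal markers (x axes) in the same 6 libraries, with WT in blue, Npr1+/- in red and the replicate number as the shape. Both libraries numbered 1 are low in smooth muscle markers, *Ptgis* and *Tbxa2r*, and Npr1+/- 1 alone is high in neuronal markers and *Ptger3*. Schwann cell, mesothelial and fat cell markers, not drawn here, are also highest in Npr1+/- 1.

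The genes whose log2 CPM over the 6 libraries was most like that of *Ptgis* were *Klhl40* (Pearson r = 0.9988), *Klhl23* (0.9974) and *Wfdc1* (0.9974). For *Tbxa2r* they were *Thra* (0.9991), *Dcp1b* (0.9987) and *C1qtnf6* (0.9982). These are descriptions over 6 libraries that share the low values of the 2 numbered 1. An r over 0.95 was reached by 455 genes for *Ptgis* and by 644 for *Tbxa2r*. *Klhl40* was low, at 0.11 to 0.58 FPKM over the 6 libraries. *Wfdc1* had 61.54 FPKM in Npr1+/- 1 and 133.36 in WT 1, against 169.21 to 192.01 in the other 4 libraries.

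Around these 10 genes, a list of 55 others of arachidonate and prostanoid metabolism was examined, of which 49 were tested. Of the 49, 0 were called, 26 had a positive and 23 a negative log2 fold change, and the median was 0.058. Over all 13938 genes tested, 7186 had a positive and 6752 a negative log2 fold change. The counts by direction in the groups below are small and were not tested. At an unadjusted p under 0.05 there were 2 (4.08%), *Adcy4* and *Ptgfrn*, and with the replicate block 12 (24.5%), against 2.96% and 12.4% of all genes. Groups did not overlap in 2 genes (4.08%) that were higher and 4 genes (8.16%) that were lower in all 3 Npr1+/- libraries, against 3.9% and 3.58% of all genes.

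Of the 10 tested genes for release of arachidonate and related lipids, 7 were higher on the fitted scale. *Mgll*, the monoacylglycerol lipase, was the most abundant, with 147.51, 67.34 and 81.61 FPKM in WT libraries 1 to 3, against 200.84, 96.68 and 95.44 in Npr1+/- libraries 1 to 3. The libraries fell in the same order as by the summed fat cell markers, given above, and the part of fat cells was not tested. *Pla2g5*, a secreted phospholipase, had the largest log2 fold change at 0.71 (edgeR unadjusted p = 0.376), with 0.42, 0.59 and 3.08 FPKM in WT libraries 1 to 3, against 2.14, 1.84 and 2.80 in Npr1+/- libraries 1 to 3. *Daglb*, a diacylglycerol lipase, was at 6.75 to 6.82 FPKM in WT and 4.58 to 6.37 in Npr1+/- libraries, without overlap (log2 fold change -0.28, edgeR unadjusted p = 0.110). *Pla2g4a*, the cytosolic phospholipase that feeds the cyclooxygenases, overlapped with 15.77 to 23.50 FPKM in WT and 8.87 to 24.35 in Npr1+/- libraries.

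Among the other prostaglandin synthases, 6 of 8 were higher on the fitted scale. *Ptges*, the inducible prostaglandin E synthase, was at 3.64, 2.42 and 2.45 FPKM in WT libraries 1 to 3, against 6.83, 4.32 and 3.23 in Npr1+/- libraries 1 to 3. It was higher in the Npr1+/- library of replicates 1, 2 and 3, and only WT 1 and Npr1+/- 3 overlapped (log2 fold change 0.78, edgeR unadjusted p = 0.0522, adjusted p = 0.999). With the replicate block it did not pass after adjustment (edgeR unadjusted p = 0.00408, adjusted p = 0.18). *Hpgds*, the hematopoietic prostaglandin D synthase, had no overlap at 0.59 to 0.82 FPKM in WT and 0.90 to 1.21 in Npr1+/- libraries (edgeR unadjusted p = 0.105). *Ptgds*, the lipocalin-type prostaglandin D synthase, had the lowest log2 fold change at -0.998 (edgeR unadjusted p = 0.166), with WT 3 alone at 11.87 FPKM and the other libraries from 1.34 to 5.22. *Ptges3*, the cytosolic prostaglandin E synthase and a cochaperone, was the most abundant with 75.06 to 126.38 FPKM.

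For uptake, export and breakdown, *Slco2a1*, the prostaglandin transporter, had 4.25, 3.92 and 6.95 FPKM in WT libraries 1 to 3, against 10.84, 6.02 and 7.78 in Npr1+/- libraries 1 to 3. Its log2 fold change was 0.72 (edgeR unadjusted p = 0.0593, adjusted p = 0.999), and the part of endothelial cells, whose markers are given above, was not tested. *Cbr3*, a carbonyl reductase, did not overlap at 8.31 to 9.60 FPKM in WT and 6.02 to 8.12 in Npr1+/- libraries (edgeR unadjusted p = 0.133). *Ptgr1*, a prostaglandin reductase, had the lowest log2 fold change of this group at -0.39. *Ptgr2*, of the same activity, was the most abundant and reached 41.44 and 43.88 FPKM in WT 1 and Npr1+/- 1, against 12.98 to 16.86 in the other 4 libraries.

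Of the remaining prostanoid receptors, *Ptgdr* and *Ptgdr2*, both for prostaglandin D2, did not pass the filter, with at most 0.11 and 0.04 FPKM. *Ptgfr*, for prostaglandin F2 alpha, was at 0.82 to 1.40 FPKM in WT and 0.69 to 1.02 in Npr1+/- libraries (log2 fold change -0.49, edgeR unadjusted p = 0.135). *Ptgfrn*, a membrane protein known to bind that receptor, was at 13.70 to 15.67 FPKM in WT and 9.78 to 12.51 in Npr1+/- libraries, without overlap (log2 fold change -0.35, edgeR unadjusted p = 0.0301, adjusted p = 0.999).

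Of the 14 G protein and adenylyl cyclase genes, 6 were higher and 8 lower on the fitted scale. *Adcy4* was at 11.87, 9.25 and 8.65 FPKM in WT libraries 1 to 3, against 16.19, 14.23 and 14.35 in Npr1+/- libraries 1 to 3, without overlap. Its log2 fold change was 0.59 (edgeR unadjusted p = 0.00962, adjusted p = 0.999). With the replicate block it did not pass after adjustment either (edgeR unadjusted p = 0.000848, adjusted p = 0.124). *Adcy9* lay the other way, at 7.67 to 9.05 FPKM in WT and 6.43 to 7.15 in Npr1+/- libraries (log2 fold change -0.30, edgeR unadjusted p = 0.0523). *Adcy5* had the lowest log2 fold change at -0.45 with 55.97 FPKM in Npr1+/- 1, and *Gnas*, the stimulatory G protein that receptors such as *Ptgir* use, was the most abundant with 905.04 to 1757.84 FPKM.

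In the leukotriene and lipoxin branch, which competes for arachidonate, 3 of 9 tested genes were higher on the fitted scale. *Ltc4s*, the leukotriene C4 synthase, was both the most abundant and the highest by log2 fold change (0.66, edgeR unadjusted p = 0.193), with 31.52, 14.23 and 14.40 FPKM in WT libraries 1 to 3, against 47.83, 26.24 and 19.04 in Npr1+/- libraries 1 to 3. *Alox12*, a lipoxygenase known from platelets, was the lowest (log2 fold change -0.60, edgeR unadjusted p = 0.234), with 7.85, 2.96 and 6.47 FPKM in WT libraries 1 to 3, against 5.05, 1.95 and 4.19 in Npr1+/- libraries 1 to 3. It was lower in the Npr1+/- library of each number, as was the summed FPKM of the platelet markers, and the part of platelets was not tested.

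**Figure D4:**
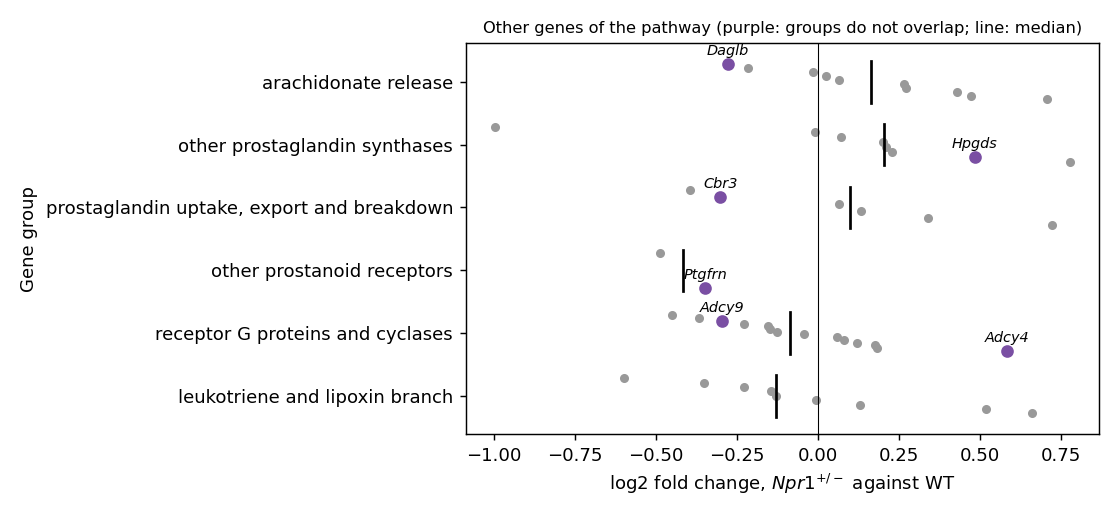
Log2 fold change of Npr1+/- against WT aortas (x axis) for the 49 tested genes in 6 groups (y axis), with a point for each gene, the median of each group as a line and genes whose groups do not overlap in purple. The 2 purple genes to the right are *Hpgds* and *Adcy4*, the 4 to the left are *Daglb*, *Cbr3*, *Ptgfrn* and *Adcy9*, and 0 of the 49 genes were called.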

How the data were processed

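Clean reads, kept by SOAPnuke, were mapped by the authors with Bowtie2 to coding genes. The authors deposited estimated counts per gene from RSEM, not normalized, and deposited FPKM for the same genes, which correct for transcript length and library size. The submitters' processing notes name mm10 as the build. Columns headed as knockdown were taken as the Npr1+/- libraries of the same number, the only group other than WT in the labels. The averages of each genotype, also deposited, were not used. Of 18191 NCBI identifiers, 18070 were paired with a symbol, and coordinates are those of GENCODE M21 on GRCm38.

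Estimated counts were rounded and tested in R 4.3.3 with edgeR 4.0.16 (TMM, minimum count of 10, quasi-likelihood test, Benjamini-Hochberg adjustment over 13938 genes). Standard errors behind the 95% intervals are the absolute log2 fold change over the root of the F statistic. Alternatives were DESeq2 1.42.0, its size factors in edgeR, no filter, limma 3.58.1 on log2(FPKM + 0.1) where the mean FPKM reached 0.1 or on log2(FPKM + 1), the replicate number as a block, no minimum fold change, and each library left out in turn. The tests were also run on simulated counts, drawn independently for each gene with the dispersions that edgeR estimated. They held no shifts shared between genes, such as those of the cell markers in these libraries. With no gene changed, edgeR made 0 false calls and DESeq2 made 22. With 200 genes changed, in equal numbers by 4-fold and 8-fold, edgeR made 9 false calls and DESeq2 made 53. Of the changed genes, edgeR called 80 at 4-fold and 96 at 8-fold, and DESeq2 called 92 and 96. Smaller changes were not simulated.

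Deviations of the libraries from their group means correlated at 0.645, 0.386 and 0.235 between libraries numbered 1, 2 and 3. Different numbers ranged from -0.58 to 0.445. WT 3 with Npr1+/- 2 (0.445) was above the same numbers 2 and 3, so that these were not set apart as pairs. The labels do not say that the numbers are pairs. They entered only the fit with the replicate block and the comparisons within a number, not the main test.

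The 10 genes and all gene lists were chosen with earlier results of these data known. Genes of the wider pathway are named where the groups do not overlap or where they have the highest or lowest log2 fold change or the highest mean FPKM of their group. *Npr1*, cell markers, *Pla2g4a*, *Ptgdr* and *Ptgdr2* are named beside them, the last 3 after their values were seen, and for the synthase and the receptor of the highest mean FPKM the 3 genes of most similar pattern are named. A result that involves a withheld item is not reported here.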

Additional observations from a re-analysis of the deposited data

How the results depend on the processing

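The number of called genes was 0 in all fits with edgeR or limma that were planned, including the replicate block, each library left out in turn and no minimum fold change. DESeq2 in place of edgeR called 16 genes. It made 22 false calls on simulated counts with no gene changed. Those counts held no shifts shared between genes and cannot say how many of the 16 were false. Without both libraries numbered 1, a choice made after seeing the data, edgeR called 1 gene, *Gm14434*. None of the 10 prostanoid genes or of the 55 others was called under any alternative. *Ptgs1*, *Tbxa2r*, *Ptger3* and *Ptger4* kept their direction under all 13 alternatives. With a library left out, log2 fold changes lay from 0.23 to 0.63 for *Ptgs1*, from -0.72 to -0.24 for *Tbxa2r*, from 0.29 to 1.60 for *Ptger3* and from 0.14 to 0.59 for *Ptger4*, and in each case the value nearest to 0 was that without Npr1+/- replicate 1. The direction of the others depended on the library left out, from -0.75 to 0.32 for *Ptgs2*, -0.40 to 0.10 for *Ptgis*, -0.51 to 0.15 for *Tbxas1*, -0.12 to 0.52 for *Ptgir* and -0.077 to 0.095 for *Ptger1*. Without both libraries numbered 1, *Ptgs2* was at 0.088, *Ptger1* at -0.002, *Ptgis* at -0.013, *Tbxas1* at -0.47, *Ptgir* at 0.595 and *Ptger4* at 0.14. *Ptger1* was also at -0.002 without the filter on low counts and at -0.017 and -0.013 with limma on log2(FPKM + 0.1) and log2(FPKM + 1), and the cause was not tested. The replicate block gave *Ptgs2* -0.16 and *Ptgis* -0.28, and it changed no call. With a library left out, the difference in log2 ratio lay from 0.055 to 1.40 for *Ptgs1* to *Ptgs2*, from -0.60 to 0.58 for *Ptgis* to *Tbxas1*, which turned without Npr1+/- replicate 1 or WT replicate 3, and from 0.30 to 1.30 for *Ptgir* to *Tbxa2r*. Each of these moves was below the larger of the SDs of the groups, and for each ratio the largest was above the smaller SD. Few counts limit *Ptger2*, *Tbxas1* and *Ptger4*.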
